A study of Mus musculus with 12 samples.

Results

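The translation factors of soleus muscle were described across 4 groups of old mice. They are the 67 protein-coding genes of the deposited table, of 30323 genes in all and 21520 protein-coding ones, whose mouse symbol starts with Eif1 to Eif6 or with Eef1 or Eef2 and goes on with letters and digits only. The rule reads symbols and no measured value. It also takes a few genes that are not factors themselves, such as methyltransferases of the elongation factors, and these are treated apart. Eef1akmt4, which the rule also names, is not analysed here.

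The soleus, a slow muscle of the calf that holds posture, was taken from male C57BL/6N mice of 24 months from an aging colony. All mice lived singly with a running wheel for 8 weeks, and muscle was collected 5 days after surgery or at the matching time. The groups are high functioning (HF) mice with laparotomy, HF control mice, low functioning (LF) mice with laparotomy and LF control mice, with 3 libraries each, 12 in total. HF and LF were assigned by performance on an accelerating rotarod, so they are sorted animals and not treated ones. A laparotomy is an opening of the abdominal wall, here the surgical stress. Whether the libraries of a group come from separate mice is not stated in the labels, so p-values measure the spread among libraries and that spread may be technical. Replicate numbers were given in order of listing and pair nothing.

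Translation starts when a small ribosomal subunit, loaded with initiator tRNA by the GTPase eIF2, is brought to the capped end of an mRNA by the eIF4 proteins and eIF3 and scans to a start codon chosen with eIF1, eIF1A and eIF5. Used eIF2 is recharged by its exchange factor eIF2B, and stress kinases slow this step by phosphorylating the alpha subunit of eIF2. The cap-binding protein eIF4E is held back by the 4E-BP proteins until the growth kinase complex mTORC1 phosphorylates them. The chain then grows through eEF1A, which delivers aminoacyl-tRNA, and eEF2, which moves the ribosome along. Skeletal muscle is known for the eEF1A2 form of eEF1A, which largely replaces eEF1A1 there after birth.

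Values are TPM, the share of a gene in all transcripts of its library scaled to a fixed total, as the authors deposited them, so they are corrected for transcript length and can be compared between genes. The depth of each library is unknown, and no counting interval can be given. Over the 12 libraries the table summed to 956473 to 962830 TPM, 10324 to 10954 genes reached 1 TPM and the 13 mitochondrially encoded genes took 26.4% to 39.7% of the TPM. The factor genes together took 0.602% to 0.835%. Replicate 3 of LF laparotomy had both the lowest mitochondrial share and the highest factor share. The fast myosin gene Myh4 passed 30 TPM in 3 libraries, replicate 2 of HF laparotomy, replicate 1 of LF laparotomy and replicate 3 of LF control. The slow soleus markers Myh7, Tnnt1, Tnni1 and Myl2, with Acta1 and Ckm, summed to 45825 to 54661 TPM in HF and 41013 to 56806 TPM in LF libraries. The genes of this sum differed in direction. Mean TPM in HF and LF libraries were 20014 and 24918 for Acta1 and 2658 and 3010 for Myh7. The means were 13162 and 11077 for Myl2, 7439 and 6110 for Tnnt1, 3781 and 3463 for Ckm and 2426 and 2268 for Tnni1. Marker sums of other cells were 78.6 to 250.3 TPM in HF and 64.2 to 78.7 TPM in LF libraries for Schwann cells, 374 to 600.5 against 292 to 383 TPM for adipocytes, 216 to 293 against 180 to 245 TPM for endothelium, 32.4 to 108 against 34.2 to 89.5 TPM for macrophages, 195 to 350 against 169 to 311 TPM for fibroadipogenic cells and 1268 to 3705 against 974 to 3630 TPM for erythroid cells. The upper ends in HF for Schwann cells, macrophages, fibroadipogenic cells and erythroid cells all came from replicate 3 of HF laparotomy. The next highest HF library had 107.7 TPM of Schwann cell and 76.7 TPM of macrophage markers. Without that replicate 22 factor genes were called in HF against LF, in place of 25. The share of all genes called in that fit is not given here. No marker was at 0 in every library, but the adipocyte marker Plin1 reached 0.055 TPM at most. Fabp4 made up most of the adipocyte sum, at a mean of 441 TPM in HF and 314 TPM in LF libraries, so that sum largely follows 1 gene. In the endothelial sum Egfl7 averaged 82.0 TPM in HF and 52.7 TPM in LF, and Pecam1 45.1 and 39.5 TPM. In the fibroadipogenic sum Ly6a averaged 116 TPM in HF and 80.5 TPM in LF, and Dcn 127 and 126 TPM. The fibroadipogenic markers Pdgfra, Col1a1 and Dpt averaged slightly lower in HF. The part of these cells in the differences below was not tested, and in whole muscle fewer cells of a type and less RNA per cell cannot be told apart.

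Of the 67 genes, 64 averaged at least 1 TPM and were tested. Eif5a2, a second eIF5A gene, averaged 0.56 TPM, Eif4e1b, a cap-binding paralog known from oocytes, 0.18 TPM and the methyltransferase gene Eef1akmt3 0.074 TPM. The tested genes spanned a wide range. Eif1 led with a mean of 1003 TPM, followed by Eef1a2 at 759.6, Eef2 at 745, Eef1a1 at 479 and Eef1g at 384 TPM, and the lowest were Eif2ak4 at 1.23, Eif4ebp3 at 1.50 and Eif2ak3 at 1.53 TPM.

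Most calls among the factor genes came from the contrast of HF and LF muscle, averaged over control and laparotomy. In the limma test across all 10757 genes, with an adjusted p threshold of 0.05, 25 of the 64 factor genes were called, 2 higher and 23 lower in HF. That is 3.12% higher, against 6.03% of all genes tested, 35.9% lower, against 35.3%, and 39.1% called either way, against 41.3%. In deposited TPM the shares called lower and called either way stood near those of all genes. With size factors and quantile normalization, given below, the share called higher was above that of all genes. Their median log2 difference, HF minus LF, was -0.017 after subtracting the median of all genes, and 29 lay above that median and 35 below. Means are over 6 HF and 6 LF libraries, ± SD. Every log2 difference below is given relative to the median of all genes, ± SE, while the adjusted p tests the difference of log2(TPM + 1) as deposited.

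The subtraction matters because all genes were shifted: their median difference was -0.15 in deposited TPM and -0.0073 after division by median-of-ratios size factors. The split of higher and lower calls moves with that scale. With size factors 20 factor genes were higher (31.2%, against 17.4% of all genes) and 11 lower (17.2%, against 22.6%). With quantile normalization 19 were higher (29.7%, against 18.8%) and 12 lower (18.8%, against 22.0%). After rescaling to exclude the 10 highest genes and those encoded in mitochondria 9 were higher (14.1%, against 9.97%) and 20 lower (31.2%, against 30.6%). After removing a trend with transcript length and GC content 10 were higher (15.6%, against 15.1%) and 11 lower (17.2%, against 19.0%). No test was made of these shares against each other. Across these scalings 9 genes were lower in HF in all 5, and they also kept their call without each single library and under every other alternative tried, 23 in all. They are Eif5, Eif2b4, Eif4ebp2, Eif3j2, Eef1a2, Eif4a2, Eif2s3y, Eif2s3x and Eif5a. Another 6 genes, Eif1, Eif2b5, Eif4a3, Eif4ebp1, Eef1d and Eef1b2, were higher in HF in the 4 scalings other than deposited TPM, where Eif4a3 alone passed. The share of all genes that met either rule was not computed, so the counts of 9 and 6 have no background here.

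**Figure D1:**
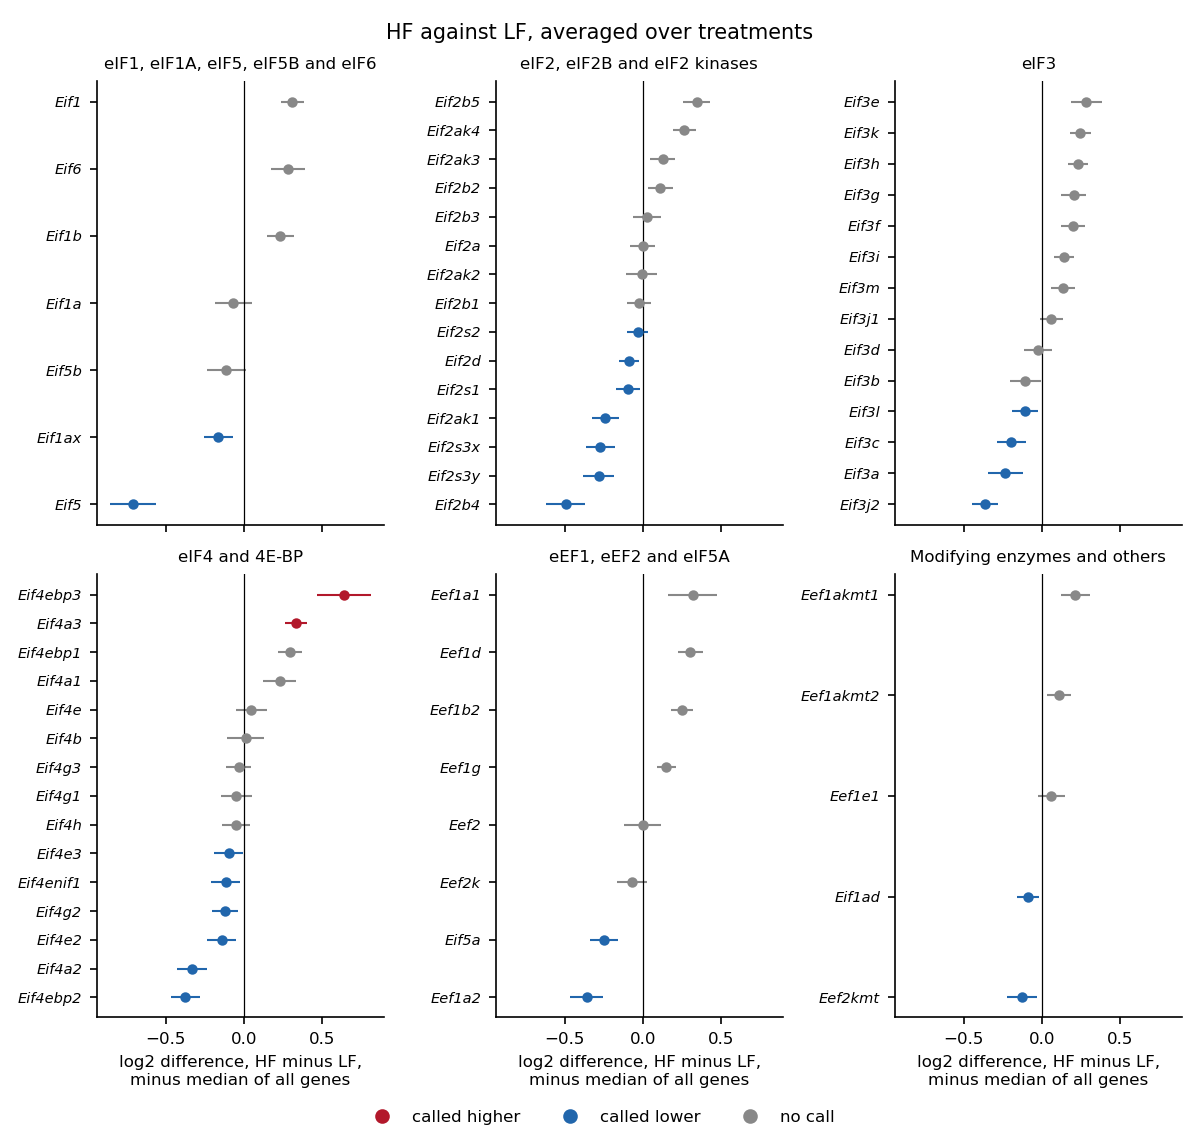
Log2 difference, HF minus LF averaged over treatments and minus the median of all genes, for the 64 tested factor genes by role. Points are estimates and bars 1 SE; red marks genes called higher (2), blue genes called lower (23) and grey no call in the deposited TPM, where the median of all genes itself lies at -0.15.

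Among the start codon factors the genes did not move as 1 group. Eif5, the GTPase-activating protein that makes eIF2 hydrolyse its GTP at the start codon, differed most of all 64 genes. Eif5 was measured at 7.82, 7.28 and 7.42 TPM in HF laparotomy and 10.9, 11.8 and 7.92 TPM in HF control libraries, and at 11.96, 20.4 and 20.2 TPM in LF laparotomy and 17.6, 12.1 and 19.3 TPM in LF control libraries. All HF libraries lay below all LF libraries. The means were 8.86 ± 1.97 TPM in HF and 16.9 ± 3.93 TPM in LF, and the log2 difference was -0.71 ± 0.15 (limma adjusted p = 0.00119). The gene lies at chr12:111538016-111546752 on the plus strand (GRCm38; ENSMUSG00000021282).

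Eif1, which keeps scanning subunits from starting at wrong codons, lay on the other side of the median. For Eif1, the HF laparotomy libraries gave 1040.3, 1217 and 1002 TPM and the HF controls 1057, 1039.7 and 998 TPM, while the LF laparotomy libraries gave 839.6, 830.0 and 1021 TPM and the LF controls 1001, 1009.5 and 986 TPM. The groups overlapped, with 3 LF libraries inside the HF range and 3 below it. Its log2 difference was 0.31 ± 0.072, with an adjusted p of 0.0892 in deposited TPM and of 0.00555 to 0.0425 in the 4 other scalings. Reads of Eif1 may be shared with transcripts of other genes that match its sequence. These genes, Emd and Gm16378 among them, together held 23.9 TPM. That sum counts each gene whole and is not the level of the matching transcripts alone.

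Eif6, which keeps the large subunit from joining too early, was not called in deposited TPM. Eif6 had 23.2, 32.2 and 27.5 TPM in HF laparotomy and 29.8, 38.9 and 26.96 TPM in HF control libraries, against 24.3, 24.6 and 31.7 TPM in LF laparotomy and 27.8, 27.1 and 25.1 TPM in LF control libraries. The ranges overlapped, and the log2 difference was 0.28 ± 0.11 (limma adjusted p = 0.333). Eif6 was called higher with size factors (limma adjusted p = 0.0136) and quantile normalization (0.00742). Of the rest, Eif1ax, the eIF1A gene of the X chromosome, was lower in HF (13.8 ± 0.918 TPM in HF and 17.5 ± 2.86 TPM in LF; limma adjusted p = 0.0182), a call lost with size factors, quantile normalization and removal of the length trend. Eif1a, Eif1b and the subunit-joining GTPase gene Eif5b were not called in deposited TPM. Eif1a averaged 5.09 ± 0.902 TPM in HF and 6.05 ± 0.917 TPM in LF. Eif1b averaged 36.3 ± 1.91 TPM in HF and 34.4 ± 4.50 TPM in LF. It was called higher with size factors (limma adjusted p = 0.0140) and quantile normalization (0.00402). Eif5b averaged 48.5 ± 6.72 TPM in HF and 58.5 ± 10.7 TPM in LF.

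eIF2 has an alpha, a beta and a gamma subunit, and the gamma subunit is encoded by a gene on the X and another on the Y chromosome in mice. Both gamma genes were lower in HF. Eif2s3x was measured at 24.6, 26.8 and 27.9 TPM in HF laparotomy and 30.7, 35.2 and 26.5 TPM in HF control libraries, and at 30.2, 39.7 and 42.4 TPM in LF laparotomy and 37.5, 40.6 and 41.00 TPM in LF control libraries. For Eif2s3y, the HF laparotomy libraries gave 27.4, 30.99 and 23.2 TPM and the HF controls 31.1, 40.2 and 31.96 TPM, while the LF laparotomy libraries gave 35.7, 41.3 and 49.4 TPM and the LF controls 41.6, 42.1 and 38.8 TPM. In each gene 1 or 2 HF control libraries reached into the LF range and the HF laparotomy libraries stayed below every LF library. Eif2s3x had a log2 difference of -0.27 ± 0.094 (limma adjusted p = 0.00427) and Eif2s3y of -0.28 ± 0.10 (limma adjusted p = 0.00497).

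The proportion of the copies overlapped between the groups. The Y copy made up 51.7% ± 3.37 of their summed TPM in HF and 51.9% ± 2.10 in LF libraries (SD, n = 6 each), while the sum was 59.4 ± 8.81 TPM in HF and 80.04 ± 8.33 TPM in LF libraries. Over the coding sequence the copies agree at 86.3% of 1416 aligned positions. Their first 120 coding bases (GRCm38, GENCODE) show how the copies can be told apart in reads, with the 19 differing bases in capitals.
Eif2s3x: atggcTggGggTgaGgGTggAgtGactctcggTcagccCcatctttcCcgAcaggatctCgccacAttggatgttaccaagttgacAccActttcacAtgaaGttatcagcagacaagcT
Eif2s3y: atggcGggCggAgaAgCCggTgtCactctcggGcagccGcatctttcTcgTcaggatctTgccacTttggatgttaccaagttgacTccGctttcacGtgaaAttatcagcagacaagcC

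Eif2s1 encodes the alpha subunit, the one that stress kinases phosphorylate. Eif2s1 had 9.58, 11.04 and 10.3 TPM in HF laparotomy and 10.9, 11.6 and 9.45 TPM in HF control libraries, against 11.3, 13.4 and 13.4 TPM in LF laparotomy and 12.3, 11.9 and 13.04 TPM in LF control libraries. It was called lower in HF by a small margin, with -0.094 ± 0.077 (limma adjusted p = 0.0232), and this call was lost in 7 of 23 alternatives. Eif2s2, the beta subunit gene, averaged 58.4 ± 4.02 TPM in HF and 66.4 ± 4.62 TPM in LF; it was called lower in deposited TPM (limma adjusted p = 0.0469), its log2 difference from the median of all genes was -0.033 ± 0.068, and the call held in only 6 of 23 alternatives.

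Within eIF2B, the exchange factor, subunit genes lay on opposite sides of the median. Eif2b4, the delta subunit gene at chr5:31187558-31193430 on the minus strand (GRCm38; ENSMUSG00000029145), was lower in HF. Eif2b4 was measured at 11.6, 10.5 and 11.9 TPM in HF laparotomy and 9.73, 12.7 and 11.2 TPM in HF control libraries, and at 15.5, 17.6 and 27.4 TPM in LF laparotomy and 14.6, 17.5 and 18.2 TPM in LF control libraries. HF and LF libraries did not overlap, and replicate 3 of LF laparotomy was the highest. The log2 difference was -0.49 ± 0.12 (limma adjusted p = 0.00196). Exons of Eif2b4 overlap those of Snx17 on the opposite strand by 204 bases, so part of its reads may not be assignable.

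Eif2b5, the catalytic epsilon subunit gene, gave another pattern. For Eif2b5, the HF laparotomy libraries gave 49.5, 49.9 and 48.5 TPM and the HF controls 49.1, 46.3 and 44.6 TPM, while the LF laparotomy libraries gave 38.02, 36.6 and 52.04 TPM and the LF controls 41.5, 39.4 and 44.96 TPM. Of the LF libraries 4 lay below all HF libraries, replicate 3 of LF control lay within the HF range and replicate 3 of LF laparotomy above it. Between HF and LF it differed by 0.34 ± 0.086 in log2, with an adjusted p of 0.0851 in deposited TPM and of 0.000826 to 0.00738 in the other scalings. Eif2b1, Eif2b2 and Eif2b3, the alpha, beta and gamma subunit genes, were not called in deposited TPM. Eif2b1 averaged 16.1 ± 1.24 TPM in HF and 18.3 ± 2.23 TPM in LF. Eif2b2 averaged 22.8 ± 1.72 TPM in HF and 23.5 ± 2.22 TPM in LF, and was called higher with quantile normalization alone of the scalings (limma adjusted p = 0.0239). Eif2b3 averaged 15.8 ± 0.691 TPM in HF and 17.4 ± 2.40 TPM in LF.

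The 4 eIF2 kinase genes were low, from 1.23 to 10.7 TPM on average. Eif2ak1, the haem-regulated kinase HRI, was the highest of them and was lower in HF, at 9.17 ± 1.04 TPM in HF and 12.3 ± 1.41 TPM in LF, with a log2 difference of -0.24 ± 0.089 (limma adjusted p = 0.00481). That call was lost only once a length and GC trend was taken out, and the gene overlaps Aimp2 on the opposite strand. Eif2ak3, the endoplasmic reticulum kinase PERK, was not called in deposited TPM. Eif2ak3 had 1.19, 1.46 and 1.71 TPM in HF laparotomy and 1.57, 1.77 and 1.36 TPM in HF control libraries, against 1.27, 1.33 and 1.58 TPM in LF laparotomy and 1.72, 1.66 and 1.71 TPM in LF control libraries. Relative to the median of all genes its log2 difference was 0.13 ± 0.078, and as deposited it was -0.022 (limma adjusted p = 0.841). Eif2ak3 was called higher with the length and GC trend removed (limma adjusted p = 0.0225).

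Eif2ak4, the amino acid sensor GCN2, lay above the median of all genes but was not called in deposited TPM. Eif2ak4 was measured at 0.997, 1.21 and 1.42 TPM in HF laparotomy and 1.36, 1.52 and 1.42 TPM in HF control libraries, and at 1.17, 0.970 and 1.22 TPM in LF laparotomy and 1.25, 1.06 and 1.17 TPM in LF control libraries. With overlapping groups its log2 difference was 0.26 ± 0.074 (limma adjusted p = 0.228), and it was called higher with size factors, quantile normalization and the length trend removed. Eif2ak2, the RNA-sensing kinase PKR, averaged 1.92 ± 0.396 TPM in HF and 2.23 ± 0.293 TPM in LF (limma adjusted p = 0.225). Of the alternative tRNA-delivering factors, Eif2d was lower in HF (13.1 ± 1.43 TPM in HF and 15.5 ± 0.862 TPM in LF; limma adjusted p = 0.0113) and Eif2a was not called (26.5 ± 2.27 TPM in HF and 29.5 ± 2.98 TPM in LF). The Eif2d call was lost with size factors (limma adjusted p = 0.239), quantile normalization (0.599), the length and GC trend removed (0.887) and the libraries with Myh4 above 30 TPM left out.

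eIF3, the multi-subunit scaffold that joins the small subunit to the mRNA, was measured through 14 genes with means of 18.2 to 130 TPM. Of these 4 were called lower in HF and 0 higher, against 35.3% and 6.03% of all genes, and the median of the 14 lay 0.097 above the median of all genes. Eif3j2 was the first of these by p. For Eif3j2, the HF laparotomy libraries gave 21.2, 24.2 and 23.3 TPM and the HF controls 25.9, 28.6 and 22.4 TPM, while the LF laparotomy libraries gave 29.7, 34.2 and 39.2 TPM and the LF controls 35.9, 34.1 and 36.6 TPM. The 6 HF libraries lay below the 6 LF libraries. Its log2 difference was -0.36 ± 0.083 (limma adjusted p = 0.000930), the smallest adjusted p of all factor genes.

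The eIF3j subunit, which sits loosely in the complex, has a second gene in the mouse, Eif3j1, and the coding sequences of these genes are 99.2% identical. The split of reads between them is therefore uncertain. Eif3j1 alone averaged 17.5 ± 0.539 TPM in HF and 18.8 ± 1.85 TPM in LF and was not called. Their sum was 38.6, 41.6 and 40.6 TPM in HF laparotomy, 43.1, 47.2 and 39.8 TPM in HF control, 46.5, 50.9 and 60.4 TPM in LF laparotomy and 54.1, 54.4 and 56.1 TPM in LF control libraries. The highest HF sum, 47.2 TPM, exceeded the lowest LF sum, 46.5 TPM, and no other pair of libraries crossed.

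Eif3a, the largest core subunit gene, was also lower in HF. Eif3a had 36.6, 40.7 and 49.7 TPM in HF laparotomy and 49.9, 50.8 and 39.3 TPM in HF control libraries, against 48.2, 51.2 and 72.2 TPM in LF laparotomy and 56.9, 58.96 and 61.98 TPM in LF control libraries. The groups overlapped, and the log2 difference was -0.23 ± 0.11 (limma adjusted p = 0.0162). Eif3c, its partner in the core, averaged 66.7 ± 5.56 TPM in HF and 85.2 ± 11.5 TPM in LF and did not overlap between HF and LF (limma adjusted p = 0.0110), and Eif3l averaged 43.5 ± 4.10 TPM in HF and 52.1 ± 4.66 TPM in LF (limma adjusted p = 0.0231). The calls of all 3 were lost once a length and GC trend was taken out. Those of Eif3c and Eif3l were also lost with size factors (limma adjusted p = 0.0678 for Eif3c and 0.148 for Eif3l) and with quantile normalization, that of Eif3a also with no filter on low values, and that of Eif3l also without the libraries with Myh4 above 30 TPM and without each of 4 single libraries, HF laparotomy replicates 1 and 2, HF control replicate 3 and LF control replicate 3. The other 9 genes, Eif3b, Eif3d, Eif3e, Eif3f, Eif3g, Eif3h, Eif3i, Eif3k and Eif3m, were not called in deposited TPM. With size factors 7 eIF3 genes were higher and 2 lower, against 17.4% and 22.6% of all genes. Quantile normalization called Eif3e, Eif3f, Eif3g, Eif3h, Eif3i and Eif3k higher and Eif3a and Eif3j2 lower. In rescaled TPM only Eif3h and Eif3k were higher, while Eif3a, Eif3c, Eif3j2 and Eif3l were lower. Once length and GC were corrected for, only Eif3e and Eif3f were higher and Eif3j2 alone was lower. The shares of all genes in these scalings are given above.

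The eIF4 group holds the cap-binding protein, its scaffold, the RNA helicase and the inhibitors. Eif4e, the cap-binding protein itself, was not called. Eif4e was measured at 13.1, 11.8 and 11.6 TPM in HF laparotomy and 16.1, 14.8 and 11.9 TPM in HF control libraries, and at 11.3, 15.8 and 14.4 TPM in LF laparotomy and 13.2, 15.1 and 15.2 TPM in LF control libraries. Relative to the median of all genes its log2 difference was 0.048 ± 0.10, and as deposited it was -0.099 (limma adjusted p = 0.426). Its paralogs were called lower in HF: Eif4e2, the repressive 4EHP, averaged 20.03 ± 2.25 TPM in HF and 24.7 ± 3.37 TPM in LF (limma adjusted p = 0.0238), and Eif4e3 averaged 8.09 ± 1.33 TPM in HF and 9.70 ± 0.555 TPM in LF (limma adjusted p = 0.0478). The Eif4e2 call held in 16 of 23 alternatives and the Eif4e3 call in 8, and both were lost with size factors, quantile normalization and the length and GC trend removed.

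The inhibitors of eIF4E differed among themselves. Eif4ebp2, at chr10:61428491-61452661 on the minus strand (GRCm38; ENSMUSG00000020091), was the main 4E-BP transcript in this muscle and was lower in HF. For Eif4ebp2, the HF laparotomy libraries gave 35.1, 37.8 and 39.3 TPM and the HF controls 45.7, 46.3 and 43.9 TPM, while the LF laparotomy libraries gave 44.9, 57.3 and 66.5 TPM and the LF controls 58.1, 63.6 and 69.4 TPM. Replicate 1 of LF laparotomy fell inside the range of the HF controls, and the other LF libraries lay above all HF libraries. HF differed from LF by -0.37 ± 0.090 in log2 (limma adjusted p = 0.00119).

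Eif4ebp1, the best known mTORC1 substrate among them, was not called in deposited TPM. Eif4ebp1 had 5.76, 6.71 and 6.46 TPM in HF laparotomy and 7.50, 9.77 and 7.77 TPM in HF control libraries, against 6.47, 6.18 and 6.56 TPM in LF laparotomy and 5.99, 6.68 and 6.78 TPM in LF control libraries. The HF controls held the 3 highest values. Its log2 difference was 0.29 ± 0.079, with an adjusted p of 0.149 in deposited TPM and of 0.00294 to 0.0468 in the 4 other scalings. Eif4ebp2 formed 82.6% to 85.9% of the summed Eif4ebp1 and Eif4ebp2 TPM in HF libraries and 87.4% to 91.1% in LF libraries, without overlap.

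Eif4ebp3 was called higher in HF at a very low level. Eif4ebp3 was measured at 1.12, 2.58 and 1.25 TPM in HF laparotomy and 3.30, 1.39 and 1.94 TPM in HF control libraries, and at 1.07, 1.05 and 1.88 TPM in LF laparotomy and 0.769, 0.454 and 1.15 TPM in LF control libraries. The groups overlapped widely. With 0.64 ± 0.17 it had the largest positive difference of the factor genes (limma adjusted p = 0.0378), and the call was lost in 10 of 22 alternatives, 7 of them the loss of 1 library.

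**Figure D2:**
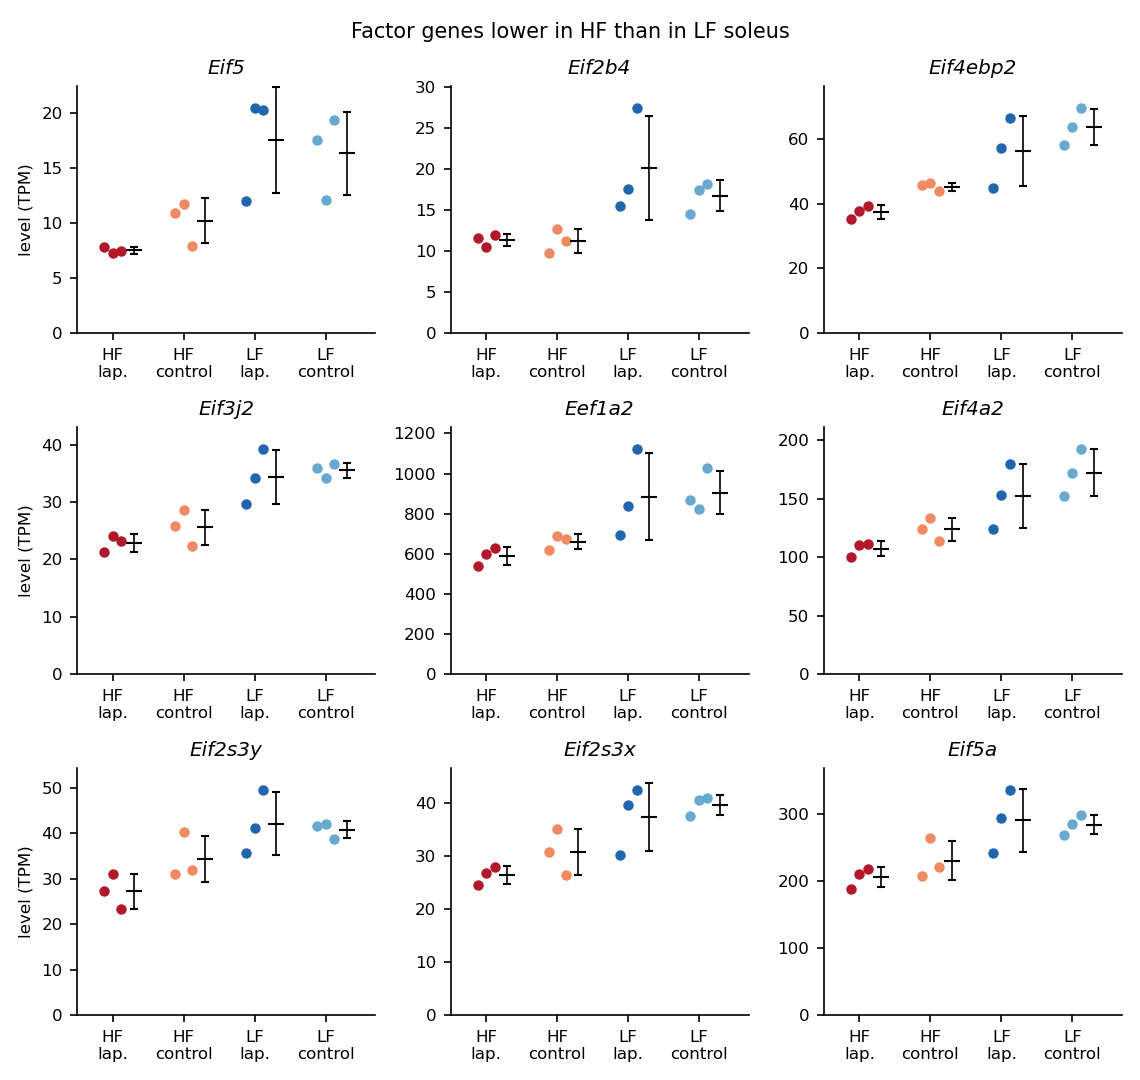
Level in TPM of the 9 factor genes that were lower in HF under every scaling and alternative tried, by group. Points are libraries (3 a group), black marks the group mean ± SD. In Eif5, Eif2b4, Eif3j2 and Eef1a2 the HF libraries lie below all LF libraries.

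The helicase eIF4A, which unwinds mRNA for scanning, is encoded by a pair of paralogs, Eif4a1 and Eif4a2. Eif4a2, at chr16:23107444-23114136 on the plus strand (GRCm38; ENSMUSG00000022884), was lower in HF. For Eif4a2, the HF laparotomy libraries gave 99.8, 110.2 and 111 TPM and the HF controls 124, 134 and 114 TPM, while the LF laparotomy libraries gave 124, 153 and 179.7 TPM and the LF controls 152, 172 and 192 TPM. HF control replicate 2 overlapped with replicate 1 of LF laparotomy, and no HF laparotomy library reached an LF value. In log2 it differed by -0.33 ± 0.094 (limma adjusted p = 0.00211). Exons of Eif4a2 overlap those of Rfc4 on the opposite strand by 194 bases.

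Eif4a1 was not called in deposited TPM. Eif4a1 had 79.7, 104 and 94.1 TPM in HF laparotomy and 95.2, 118 and 89.4 TPM in HF control libraries, against 78.9, 87.02 and 114 TPM in LF laparotomy and 87.8, 85.2 and 95.3 TPM in LF control libraries. It differed by 0.23 ± 0.10 in log2 (limma adjusted p = 0.557). Eif4a1 was called higher with size factors (limma adjusted p = 0.0187) and quantile normalization (0.0287). In deposited TPM Eif4a2 formed 51.4% to 56.5% of the summed TPM of the pair in HF and 61.2% to 66.9% in LF libraries, without overlap. Eif4a1 reads may be shared with copies of its sequence, which held 10.98 TPM together, against a mean of 94.1 TPM for Eif4a1. The share of Eif4a2 is uncertain to that extent. Coding identity of the pair is 77.8%. Eif4a3, a related helicase that belongs to the exon junction complex, was the other gene called higher in HF, at 35.1 ± 2.39 TPM in HF and 30.8 ± 1.72 TPM in LF, with 0.33 ± 0.069 (limma adjusted p = 0.0484). Its HF and LF ranges, 32.2 to 38.6 TPM and 28.4 to 32.7 TPM, overlapped by little, and its call held in the other scalings but was lost when any 1 of 10 libraries was left out.

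The scaffold genes Eif4g1 and Eif4g3 did not pass. Eif4g1 was measured at 113, 112 and 119 TPM in HF laparotomy and 128, 140.4 and 127 TPM in HF control libraries, and at 113, 129 and 179 TPM in LF laparotomy and 134, 145 and 155 TPM in LF control libraries. For Eif4g3, the HF laparotomy libraries gave 16.05, 17.3 and 17.3 TPM and the HF controls 17.4, 18.96 and 18.4 TPM, while the LF laparotomy libraries gave 19.9, 17.9 and 23.9 TPM and the LF controls 17.9, 19.95 and 21.4 TPM. Replicate 3 of LF laparotomy was the highest library for both, and the remaining libraries overlapped. Eif4g1 differed by -0.048 ± 0.10 (limma adjusted p = 0.125) and Eif4g3 by -0.034 ± 0.080 (limma adjusted p = 0.0833). Eif4g2, a scaffold without the cap-binding protein's site, was the most abundant eIF4 gene and was called lower in HF (205 ± 20.99 TPM in HF and 247 ± 22.6 TPM in LF; limma adjusted p = 0.0180), as was Eif4enif1, the eIF4E transporter (14.8 ± 1.49 TPM in HF and 18.05 ± 2.25 TPM in LF; limma adjusted p = 0.0340). The Eif4g2 call was lost with 2 alternatives and that of Eif4enif1 with 14. The helicase cofactor genes Eif4b and Eif4h were not called. Eif4b averaged 102 ± 13.5 TPM in HF and 112 ± 20.4 TPM in LF. Eif4h averaged 36.8 ± 2.77 TPM in HF and 42.6 ± 5.38 TPM in LF.

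Among elongation factors the muscle form of eEF1A was lower in HF and the general form was not called, and the difference between them was not tested. Eef1a2, at chr2:181147653-181157014 on the minus strand (GRCm38; ENSMUSG00000016349), had the highest mean of the elongation factor genes. Eef1a2 had 539, 598 and 629 TPM in HF laparotomy and 618, 690.0 and 673 TPM in HF control libraries, against 695, 839 and 1120.4 TPM in LF laparotomy and 866, 823 and 1026 TPM in LF control libraries. Every HF library was below every LF library. The means were 624 ± 54.2 TPM in HF and 895 ± 153 TPM in LF, with a log2 difference of -0.36 ± 0.11 (limma adjusted p = 0.00297). Eef1a1, the form of most other tissues, varied between libraries of the same group. Eef1a1 was measured at 394, 439 and 638 TPM in HF laparotomy and 527, 684 and 382 TPM in HF control libraries, and at 495, 518 and 379.8 TPM in LF laparotomy and 498, 431 and 358 TPM in LF control libraries. Its log2 difference was 0.32 ± 0.16 (limma adjusted p = 0.402).

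As a share of both genes, Eef1a2 made up 57.8%, 57.7% and 49.6% in HF laparotomy, 54.0%, 50.2% and 63.8% in HF control, 58.4%, 61.8% and 74.7% in LF laparotomy and 63.5%, 65.6% and 74.2% in LF control libraries. The highest HF control library exceeded 3 LF libraries and all other HF libraries lay below the LF range. Eef1a1 reads may also be shared with its pseudogene copies, which held 2.31 TPM together. The coding sequences of the pair are 79.9% identical. Their first 120 coding bases (GRCm38, GENCODE) are shown because the proteins are nearly alike and the genes are told apart in reads by such scattered bases, the 18 in capitals.
Eef1a1: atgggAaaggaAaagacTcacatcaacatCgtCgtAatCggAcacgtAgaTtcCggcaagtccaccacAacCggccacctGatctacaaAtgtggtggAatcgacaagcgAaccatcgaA
Eef1a2: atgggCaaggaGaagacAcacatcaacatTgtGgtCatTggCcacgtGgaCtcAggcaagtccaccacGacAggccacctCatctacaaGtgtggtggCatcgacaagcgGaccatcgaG

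The exchange complex that recharges eEF1A is formed by the products of Eef1b2, Eef1d and Eef1g. Eef1d was narrow in HF and spread in LF. For Eef1d, the HF laparotomy libraries gave 251, 248 and 248 TPM and the HF controls 256, 247 and 259 TPM, while the LF laparotomy libraries gave 212, 214 and 273 TPM and the LF controls 209.7, 205 and 249 TPM. Of the LF libraries 4 lay below every HF library. The log2 difference was 0.30 ± 0.078, with an adjusted p of 0.125 in deposited TPM and of 0.00310 to 0.0234 in the other scalings. Eef1b2 averaged 316 ± 24.1 TPM in HF and 294 ± 22.3 TPM in LF, with 0.25 ± 0.068 and an adjusted p of 0.242 in deposited TPM and of 0.00227 to 0.0418 otherwise. Eef1g averaged 384 ± 14.2 TPM in HF and 385 ± 33.05 TPM in LF and was called higher only with size factors. Eef1d shares exon bases with Naprt on the same strand, and Eef1b2 with Ndufs1 on the opposite one.

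**Figure D3:**
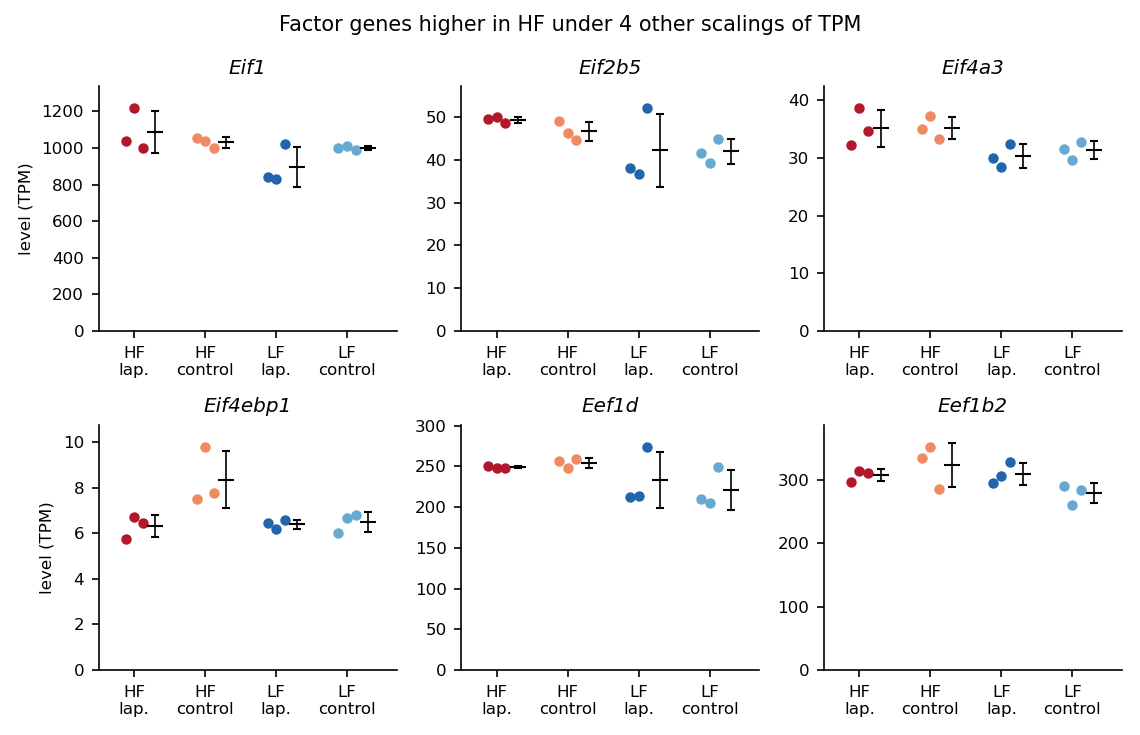
Level in TPM of the 6 factor genes that were higher in HF in the 4 scalings other than deposited TPM, by group. Points are libraries (3 a group), black marks the group mean ± SD. The ranges of HF and LF libraries overlap in each of these genes in deposited TPM.

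Translocation showed no call. For Eef2, the translocase gene, the 12 libraries were mixed. Eef2 had 593, 659 and 756 TPM in HF laparotomy and 735, 766 and 703 TPM in HF control libraries, against 642, 679 and 1077 TPM in LF laparotomy and 752, 709.5 and 866 TPM in LF control libraries. The log2 difference was -0.0012 ± 0.12 (limma adjusted p = 0.332), and replicate 3 of LF laparotomy stood highest. Eef2k, whose kinase switches eEF2 off, averaged 16.6 ± 3.60 TPM in HF and 19.2 ± 2.18 TPM in LF. Eef2k was measured at 13.7, 13.6 and 14.9 TPM in HF laparotomy and 16.3, 23.1 and 17.9 TPM in HF control libraries, and at 17.3, 18.3 and 19.2 TPM in LF laparotomy and 17.3, 19.95 and 23.1 TPM in LF control libraries. In log2 Eef2k differed by -0.071 ± 0.094 (limma adjusted p = 0.0778).

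Eif5a, at chr11:69916714-69921958 on the minus strand (GRCm38; ENSMUSG00000078812), encodes the hypusine-carrying factor that helps the ribosome through difficult stretches. For Eif5a, the HF laparotomy libraries gave 189, 211 and 218 TPM and the HF controls 207, 264 and 220.3 TPM, while the LF laparotomy libraries gave 242, 294 and 335 TPM and the LF controls 269, 285 and 298 TPM. HF control replicate 2 reached above replicate 1 of LF laparotomy, and all other HF libraries were below the LF range. The log2 difference was -0.25 ± 0.089 (limma adjusted p = 0.00441).

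Among the genes that are not factors, Eef2kmt, a methyltransferase of eEF2, was lower in HF (5.55 ± 0.756 TPM in HF and 6.90 ± 0.769 TPM in LF; limma adjusted p = 0.0352), as was Eif1ad, a protein with an eIF1A-like domain (11.6 ± 0.523 TPM in HF and 13.8 ± 1.08 TPM in LF; limma adjusted p = 0.0183). Both share exon bases with a gene on the opposite strand, Alg1 and Banf1, and the Eef2kmt call was lost in 12 of 23 alternatives. The Eif1ad call was lost with size factors (limma adjusted p = 0.205) and quantile normalization (0.462). Eef1akmt1 and Eef1akmt2, which methylate eEF1A, were not called in deposited TPM. Eef1akmt1 averaged 41.9 ± 5.29 TPM in HF and 39.9 ± 3.76 TPM in LF. It was called higher with size factors (limma adjusted p = 0.0308) and quantile normalization (0.0272). Eef1akmt2 averaged 4.50 ± 0.574 TPM in HF and 4.63 ± 0.442 TPM in LF. Eef1e1, a member of the tRNA synthetase complex known as AIMP3, averaged 10.02 ± 0.897 TPM in HF and 10.7 ± 1.15 TPM in LF and was not called either.

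The 2 treatments can be read apart. In controls alone, 3 factor genes passed, all lower in HF, and 0 were higher, against 10.5% of all genes called, 2.44% higher and 8.04% lower. They were Eif3j2 at -0.36 ± 0.12 (limma adjusted p = 0.0320), Eif4ebp2 at -0.37 ± 0.13 (limma adjusted p = 0.0358) and Eif4a2 at -0.36 ± 0.13 (limma adjusted p = 0.0433). All 3 calls were lost without HF control replicate 1, HF control replicate 3, LF control replicate 2 or LF control replicate 3, and without the 3 libraries with high Myh4. With LF laparotomy replicate 1 left out 10 passed, with LF laparotomy replicate 3 left out 7 and with HF control replicate 2 left out 5. The shares of all genes called in these fits are not given here.

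After laparotomy, 14 factor genes passed, all lower in HF, against 26.0% of all genes called, 1.50% higher and 24.5% lower. By smallest p these began with Eif5 at -0.90 ± 0.21 (limma adjusted p = 0.00623), Eif3j2 at -0.37 ± 0.12 (limma adjusted p = 0.00838), Eif4ebp2 at -0.37 ± 0.13 (limma adjusted p = 0.0104), Eif2s3y at -0.42 ± 0.14 (limma adjusted p = 0.0110) and Eif2b4 at -0.55 ± 0.17 (limma adjusted p = 0.0120). These 5 calls held under all 24 alternatives. The count fell to 5 without HF laparotomy replicate 1, HF laparotomy replicate 2 or LF laparotomy replicate 2 and to 7 without LF laparotomy replicate 3, and stood at 25 without LF laparotomy replicate 1. Shares of all genes called in these fits are not given either. The difference between the contrasts in controls and after laparotomy is the interaction below, which called no gene. Over both treatments, the 6 HF and the 6 LF libraries did not overlap in 5 of the 64 genes, against 11.1% of all genes tested. These were Eif5, Eif2b4, Eif3c, Eif3j2 and Eef1a2.

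Laparotomy itself, 5 days after surgery, called no factor gene. The limma counts were 0 of 64 averaged over function, 0 in HF, 0 in LF and 0 for the interaction of function and laparotomy, and the share of all genes called was 0% in each of the 4. At an unadjusted p under 0.05 stood 5 factor genes averaged over function (7.81%, against 6.94% of all genes), 5 in HF (7.81%, against 6.18%), 0 in LF (against 2.71%) and 0 for the interaction (against 3.08%). With array weights in limma 3 factor genes passed averaged over function, against 5.86% of all genes, and 3 in LF, against 6.82%. The same weights gave 46 calls for HF against LF averaged over treatments, against 64.1% of all genes, 42 after laparotomy, against 70.1%, and 16 in controls, against 31.7%. Averaged over function, the differences of laparotomy minus control ran from -0.19 in Eef2k to 0.19 in Eif2b4, with SEs of 0.061 to 0.17.

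The smallest p averaged over function belonged to Eef2k at -0.19 ± 0.094, Eif4ebp2 at -0.16 ± 0.090 and Eif2d at -0.088 ± 0.065, each with an adjusted p of 0.683 in limma. Within HF they were Eif4ebp1 at -0.23 ± 0.11, Eef2k at -0.28 ± 0.13 and Eif2d at -0.10 ± 0.092, each with a limma adjusted p of 0.655. For Eef2k, the 3 HF laparotomy libraries, at 13.7, 13.6 and 14.9 TPM, lay below the 3 HF controls, at 16.3, 23.1 and 17.9 TPM. Eif4ebp1 likewise had 5.76, 6.71 and 6.46 TPM in HF laparotomy, against 7.50, 9.77 and 7.77 TPM in HF control libraries. HF laparotomy and HF control libraries did not overlap in 14 of the 64 factor genes, against 17.2% of all genes tested.

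Within LF the smallest p were those of Eif2b1 at -0.18 ± 0.10, Eef1g at 0.18 ± 0.086 and Eif2a at -0.15 ± 0.11, all with a limma adjusted p of 0.9995. For the interaction they were Eif4ebp1 at -0.24 ± 0.16, Eif4ebp3 at -0.56 ± 0.35 and Eif2s3y at -0.27 ± 0.20, again with one limma adjusted p, 0.9998. The range over the factor genes was -0.28 to 0.20 in HF and -0.19 to 0.41 in LF, with SEs of 0.086 to 0.25 in each.

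**Figure D4:**
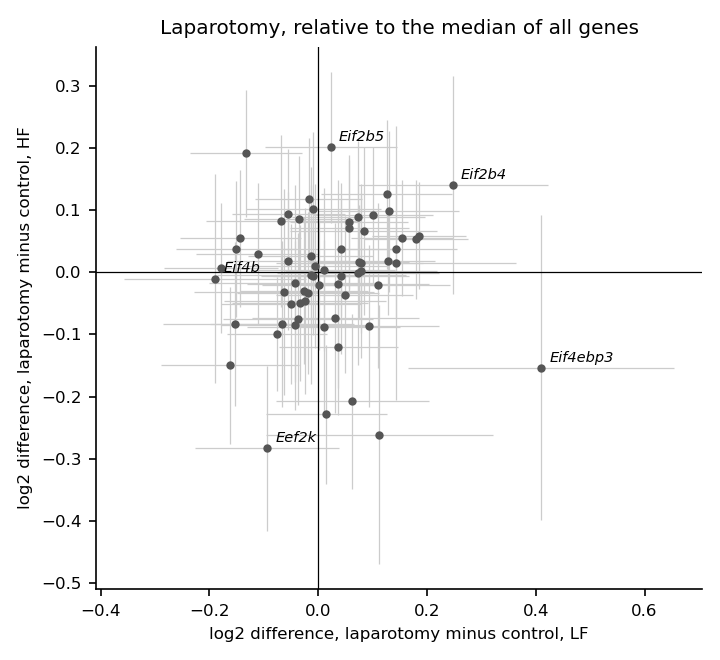
Log2 difference of laparotomy minus control in HF (vertical) against that in LF (horizontal) for the 64 tested factor genes, each minus the median of all genes. Bars are 1 SE. No gene was called in HF or in LF; Eef2k is lowest in HF at -0.28 and Eif4ebp3 highest in LF at 0.41.

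The wider pathway was read through gene lists of non-members and of known partners, in the HF against LF contrast averaged over treatments. The mTORC1 axis, which controls the 4E-BP proteins and ribosomal S6 kinase, had 2 genes higher and 12 lower of 21 tested, with a median of -0.16 relative to all genes. Of all genes tested 6.03% were called higher and 35.3% lower, the background for each of the lists that follow as well, and with size factors 17.4% and 22.6%. With size factors the mTORC1 list had 5 higher and 8 lower. Rptor, the mTORC1 scaffold that recruits substrates, averaged 8.33 ± 0.853 TPM in HF and 13.3 ± 1.75 TPM in LF and differed by -0.46 ± 0.095 (limma adjusted p = 0.000747). Rragd, a GTPase of the amino acid arm, averaged 32.3 ± 3.46 TPM in HF and 47.7 ± 6.95 TPM in LF, with -0.39 ± 0.10 (limma adjusted p = 0.00158). Deptor, an inhibitor of mTOR, averaged 2.34 ± 0.328 TPM in HF and 3.26 ± 0.304 TPM in LF, with -0.21 ± 0.077 (limma adjusted p = 0.00359). Ddit4, a stress-induced inhibitor of mTORC1 also called REDD1, was higher in HF, at 7.73 ± 1.88 TPM in HF and 4.67 ± 0.720 TPM in LF, with 0.75 ± 0.13 (limma adjusted p = 0.00341). The lower genes also included Mtor itself and its inhibitor Tsc1, so activators and inhibitors of the complex are both among them.

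Partners at the mRNA ends and scaffold had 0 genes higher and 6 lower of 15, with a median of -0.017, against 35.3% of all genes lower. Mknk1, a kinase of eIF4E, averaged 8.76 ± 2.02 TPM in HF and 13.1 ± 1.62 TPM in LF and differed by -0.40 ± 0.11 (limma adjusted p = 0.00196). Bzw2 and Bzw1 encode mimics of eIF5. Bzw2 averaged 88.9 ± 6.11 TPM in HF and 129.9 ± 24.4 TPM in LF, with -0.38 ± 0.11 (limma adjusted p = 0.00289), and Bzw1 averaged 16.8 ± 1.99 TPM in HF and 22.8 ± 2.74 TPM in LF, with -0.27 ± 0.094 (limma adjusted p = 0.00444). Paip2b, an inhibitor of the poly(A)-binding protein, averaged 32.3 ± 3.93 TPM in HF and 42.6 ± 5.42 TPM in LF, with -0.24 ± 0.088 (limma adjusted p = 0.00475). With size factors this list had 3 higher and 4 lower, against 17.4% and 22.6% of all genes.

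Termination, recycling and hypusine genes had 0 higher and 2 lower of 7, against 6.03% and 35.3% of all genes, and a median of 0.078. Abce1, which splits ribosomes after termination, averaged 13.3 ± 1.27 TPM in HF and 17.96 ± 1.30 TPM in LF, with -0.26 ± 0.078 (limma adjusted p = 0.00189), and Etf1, the release factor that reads stop codons, 46.1 ± 2.89 TPM in HF and 59.1 ± 6.16 TPM in LF, with -0.20 ± 0.081 (limma adjusted p = 0.00502). Of the eIF2 phosphatase and stress arm, 0 were higher and 1 lower of 9, against the same shares of all genes, with a median of 0.15. The 1 was Ppp1cb, a catalytic subunit of protein phosphatase 1, at 67.6 ± 8.10 TPM in HF and 92.1 ± 9.80 TPM in LF, with -0.29 ± 0.091 (limma adjusted p = 0.00283).

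Mitochondrial translation has factors of its own, and of these 0 were higher and 7 lower of 10 tested, against 6.03% and 35.3% of all genes, with a median of -0.15. Gfm1, a mitochondrial elongation factor G, averaged 36.6 ± 3.01 TPM in HF and 54.2 ± 6.95 TPM in LF, with -0.40 ± 0.090 (limma adjusted p = 0.000980). Gfm2, which serves mitochondrial ribosome recycling, averaged 23.01 ± 2.83 TPM in HF and 33.5 ± 4.76 TPM in LF, with -0.37 ± 0.10 (limma adjusted p = 0.00197). Mtif2, an initiation factor, averaged 10.3 ± 1.26 TPM in HF and 15.4 ± 1.80 TPM in LF, with -0.39 ± 0.091 (limma adjusted p = 0.00109). Mtif3, another one, averaged 12.5 ± 1.62 TPM in HF and 17.8 ± 1.89 TPM in LF, with -0.33 ± 0.089 (limma adjusted p = 0.00160). With size factors 5 of the 10 were lower and 0 higher, against 22.6% and 17.4% of all genes. None of the genes of these lists was called in a laparotomy contrast or in the interaction.

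Messages of many elongation factors belong to the 5′ TOP class, which starts with C and a run of pyrimidines and is known to be translated under mTORC1 control. A list of 12 such genes outside the ribosome, 9 of them factor genes, had 2 higher and 0 lower, against 6.03% and 35.3% of all genes, and 11 of the 12 lay above the median of all genes, at a median of 0.25. With size factors 9 were higher and 0 lower, against 17.4% and 22.6% of all genes. Of its factor genes, Eef1b2 and Eef1d were also higher in the 3 remaining scalings. Eif3h was higher with quantile normalization and rescaled TPM, and Eif3e and Eif3f with quantile normalization and the length and GC trend removed. Eef1a1, Eef2 and Eif4b were called in no scaling, and Eef1g with size factors alone. The list genes called in deposited TPM were the non-members Tpt1, at 3755 ± 308 TPM in HF and 2896 ± 202 TPM in LF, with 0.52 ± 0.069 (limma adjusted p = 0.00164), and Rack1, a scaffold on the small subunit, at 378 ± 14.02 TPM in HF and 314 ± 26.6 TPM in LF, with 0.41 ± 0.060 (limma adjusted p = 0.00417).

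The annotated starts of such genes are shown for the list members that carry a pyrimidine run there and, to compare, for Eef1a2 and Eef2. Each window has 15 bases before and 15 bases from the RefSeq start on the gene's strand (GRCm38.p6). Capitals mark a run of at least 5 bases of C or T that begins with C within 5 bases of the start, searched on the gene's strand alone.
Eef1a1 (chr9:78481710-78481739, minus strand): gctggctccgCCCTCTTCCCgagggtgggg
Eif3f (chr7:108934400-108934429, plus strand): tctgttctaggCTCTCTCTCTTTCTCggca
Rack1 (chr11:48800345-48800374, plus strand): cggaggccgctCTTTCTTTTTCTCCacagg
Eef1a2 (chr2:181157001-181157030, minus strand): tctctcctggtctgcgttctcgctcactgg
Eef2 (chr10:81176616-81176645, plus strand): tataaaaggccgggcgttgacgtcagcggt
A run of this kind stood in 18.3% of 32851 windows and in 21.2% of 27025 genes with a window, in 14 of 51 factor genes with one (27.5%), and in 3 of 7 genes of the list. For Eef2 no such run stands near the annotated start, which says only that these letters are not in this window. Whether an annotated start is where the message begins was not tested. A marked run, that of Eef1a1 included, is therefore not shown to be a 5′ TOP tract.

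Transcript length moved with the HF against LF difference. Across all genes with a length, Spearman's rho between the difference and the mean length of the annotated transcripts was -0.35 (n = 10686 genes), and across the factor genes it was -0.49 (n = 64 genes). These are descriptions across genes that share libraries. Factor genes of up to 1133 bases had a median difference of 0.21, against 0.16 for all genes in that range of lengths, those of 1140 to 1826 bases -0.0085, against 0.0034, and longer ones -0.094, against -0.083. Both higher calls fell among the short genes, and of the 23 lower calls 4, 7 and 12 fell among the short, middle and long genes. The shares of all genes called in these ranges of length were not computed, so these counts have no background here. GC content had a rho of 0.22 over all genes and 0.16 over the factor genes. The part of length in the calls was not tested beyond the scaling without its trend, which left 10 higher and 11 lower calls, the 9 lower genes named above among them.

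**Figure D5:**
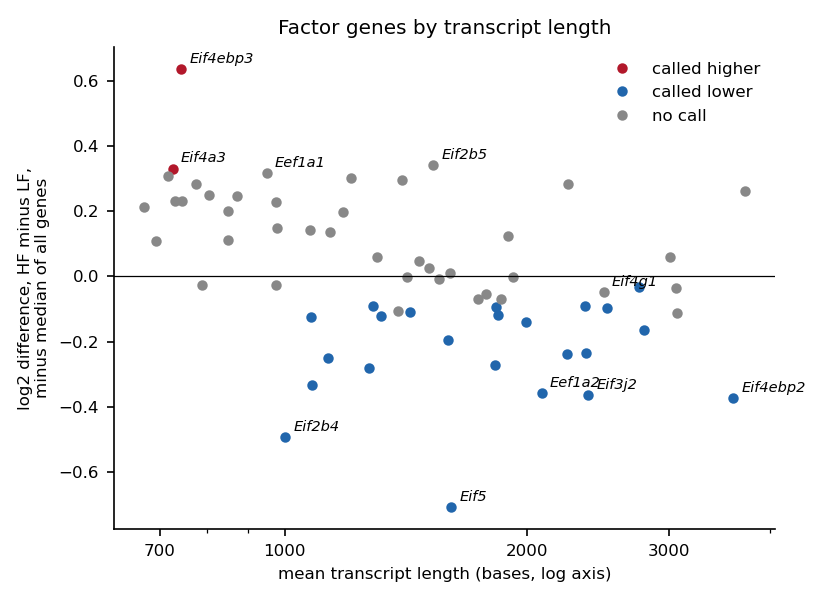
Log2 difference, HF minus LF averaged over treatments and minus the median of all genes, against the mean length of annotated transcripts (log axis) for the 64 tested factor genes. Red marks genes called higher (2), blue genes called lower (23) and grey no call; the 22 short genes have a median of 0.21 and the 21 long ones of -0.094.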

How the data were processed

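RNA of 12 soleus libraries was sequenced. The authors deposited gene-level TPM per library. Per the labels' protocols, QIAzol and columns were used for extraction, and polyA-selected RNA went into a stranded library kit. kallisto, DESeq2 and GRCm38 are named in the submitters' processing notes without role; their versions and the strand setting used were not given in the sources used here. Depth is therefore unknown, and without the strand setting reads of overlapping genes cannot be told apart.

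Ensembl IDs were matched to GENCODE M21 (29936 of 30323), and 29857 had a transcript length and GC content. The 10757 genes that averaged 1 TPM or more were tested on log2(TPM + 1) by limma (3.58.1, under R 4.3.3), using a trended variance prior, 4 group means, 8 residual degrees of freedom, two-sided, and Benjamini-Hochberg adjustment over all tested genes in each of 7 contrasts. The steps were tested on simulated data. A log2 difference on this scale understates that of genes with low TPM.

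The members, the role groups and the gene lists were chosen with earlier results of these data known. Named were 18 genes whatever they showed, every member called in HF against LF, with statistics for up to 10 of smallest p in each direction, up to 5 in other contrasts (3 where none passed), and up to 4 called genes of each list. Members beyond these, and single pairs of genes, are described from the same tables.

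As alternatives, the pseudocount was set to 0.1 or 0.5, the filter was dropped or raised to 5 TPM, and TPM were quantile normalized, divided by median-of-ratios size factors, rescaled after taking out the 10 highest genes and 13 encoded in mitochondria, or freed of a length and GC trend. Further ones were robust eBayes, array weights, a fit of only the groups compared, 3 libraries with Myh4 above 30 TPM left out and each library left out. Copies were searched with BLAST 2.17.0 at 95% identity and 80% cover of GENCODE transcripts, and start windows were taken from RefSeq promoters. Gcn1 was not matched in the table.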

Additional observations from a re-analysis of the deposited data

How the results depend on the processing

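The 9 genes named as lower in HF under every scaling kept direction and call in all 23 alternatives of HF against LF. The count of 25 factor genes called became 46 with array weights (64.1% of all genes were then called), a fit that stopped short of its convergence tolerance, and ran from 17 to 27 when 1 library was left out. With array weights 3 factor genes also passed for laparotomy averaged over function and 3 for laparotomy in LF, where the other alternatives gave none. Leaving out 1 library gave 0 to 0 for each laparotomy contrast and the interaction. In controls, the 3 genes called became 0 with no filter on low values, 9 with size factors, 15 with quantile normalization, 11 with rescaled TPM, 7 with the length and GC trend removed, 16 with array weights (31.7% of all genes), 6 in a fit of only the groups compared and 0 without the libraries with Myh4 above 30 TPM, and 0 to 10 when 1 library was left out. After laparotomy, the 14 genes called became 6 with no filter on low values, 42 with array weights (70.1% of all genes) and 6 in a fit of only the groups compared, and 5 to 25 when 1 library was left out. The cause of these moves was not tested. Apart from array weights, shares of all genes are not given beside these counts, so they are not set against moves of all genes. With the length and GC trend removed the difference turned positive for Eif2s2 (0.084) and Eif4e3 (0.019), neither then called. No paired analysis was possible because the labels give no replicate numbers and the columns name no animal that groups share. TPM hold no depth, so a difference in a gene of 1 to 2 TPM, such as Eif4ebp3 or the kinases Eif2ak3 and Eif2ak4, cannot be set against counting error.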
